A study of Mus musculus with 10 samples.

Results

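The transcripts of 10 circadian clock genes were followed in mouse ileum, the final stretch of the small bowel, after the pluripotency factors Sox2 and Oct4 (gene symbol Pou5f1) were switched on. The 10 genes are Arntl, Clock, Npas2, Per1, Per2, Per3, Cry1, Nr1d1, Nr1d2 and Dbp, taken by name from the probe annotation, and they stand for 10 of 19049 genes tested. They were read by 17 probes of 28752 kept, with 4 for Clock, 3 for Nr1d1, 2 each for Per2 and Cry1 and 1 for each other gene. All 17 probes were well above background on all 10 arrays, so every member passed the filter on dim probes. The brightest probe stood for a gene with several.

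The arrays were 1-colour, with 2 for each of 5 groups of C57BL/6 mice aged 6 to 8 weeks. In the TetON system, the regulator rtTA switches on a transgene in the presence of doxycycline (DOX). TetON-Sox2 mice were left untreated (Sox2 -DOX) or treated (Sox2 +DOX). Mice that had rtTA but lacked the Sox2 transgene (rtTA +DOX), TetON-Oct4 mice (Oct4 +DOX) and mice with both transgenes (Sox2xOct4 +DOX) all received DOX. The dose was 2 mg/ml in drinking water with 1% sucrose for 2 days, and no sucrose is recorded for Sox2 -DOX. Any difference from Sox2 -DOX therefore spans both DOX and sucrose. The cell types in which rtTA was active, and the time of day at which tissue was taken, are not given in the sources used here. Since clock transcripts change over the day, each array's value is given apart.

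In the mammalian clock, the proteins of Arntl (BMAL1) and Clock, or its relative Npas2, pair up and switch on genes that carry E-boxes, short DNA motifs near their starts. Among those genes are the Per and Cry families, whose proteins come back to block BMAL1 and CLOCK. The nuclear receptors REV-ERB alpha and beta (Nr1d1 and Nr1d2) form a second loop by repressing Arntl through motifs called ROREs, and DBP activates genes that carry D-boxes. Small intestinal cells run this clock, and meal times can shift its phase.

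The 4 TetON-Sox2 arrays shared a slide, the rtTA and Sox2xOct4 arrays shared another and the Oct4 arrays lay on the third. Group and slide cannot be told apart in comparisons across slides. The sex-linked genes Xist and Eif2s3y split the arrays. All 4 TetON-Sox2 arrays and Oct4 +DOX replicate 1 had Eif2s3y well above background, and the rtTA, Sox2xOct4 and Oct4 +DOX replicate 2 arrays did not. Pou5f1 was well above background on the Oct4 and Sox2xOct4 arrays only, at log2 levels of 0.92 to 6.20. All 8 enterocyte markers were well above background on both arrays of every group. The 2 Oct4 +DOX arrays differ in Xist and Eif2s3y and so do not stem from the same mouse. Whether both arrays of another group stem from different mice is not stated. The p-values thus cover the spread between samples, which may be technical in those groups.

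The sequences just before the genes' starts were examined first, because the clock acts on them. The 250 bases before each start listed by RefSeq (GRCm38.p6) were searched on both strands for the E-box CACGTG, the E'-box CACGTT, the RORE cores TAGGTCA and TGGGTCA, and the D-boxes TTATGTAA and TTACGTAA. Of the 10 genes, 9 had an entry. The 3 sequences below belong to the genes that were lower on every array with an induced transgene than on every control array. Capitals mark a motif on either strand.

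Nr1d1 (chr11:98775378-98775627, minus strand): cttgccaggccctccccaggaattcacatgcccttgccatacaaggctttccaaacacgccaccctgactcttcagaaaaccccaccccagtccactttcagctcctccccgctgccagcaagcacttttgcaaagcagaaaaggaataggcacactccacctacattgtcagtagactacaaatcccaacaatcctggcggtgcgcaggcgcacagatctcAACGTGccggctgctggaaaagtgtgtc
Nr1d2 (chr14:18239107-18239356, minus strand): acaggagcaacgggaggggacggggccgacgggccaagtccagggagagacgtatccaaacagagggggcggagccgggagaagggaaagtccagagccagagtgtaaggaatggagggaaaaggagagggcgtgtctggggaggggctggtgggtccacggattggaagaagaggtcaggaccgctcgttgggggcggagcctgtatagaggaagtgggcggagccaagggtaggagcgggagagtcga
Dbp (chr7:45704997-45705246, plus strand): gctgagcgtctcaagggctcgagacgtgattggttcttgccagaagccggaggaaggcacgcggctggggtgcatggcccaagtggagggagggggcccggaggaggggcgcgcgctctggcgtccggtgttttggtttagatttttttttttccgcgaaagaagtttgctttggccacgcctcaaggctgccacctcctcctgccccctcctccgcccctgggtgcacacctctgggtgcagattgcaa

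Nr1d1 held 1 E'-box, read as AACGTG on the strand shown, beginning 28 bases before the start. Nr1d2 and Dbp held none of the motifs in this window. Of the members whose levels overlapped between arrays with and without an induced transgene, Arntl, Clock and Npas2 held no motif at any listed start. Per2 had no entry. The other 3, Per1, Cry1 and Per3, are shown because they held a motif.

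Per1 (chr11:69098699-69098948, plus strand, the first of 2 starts): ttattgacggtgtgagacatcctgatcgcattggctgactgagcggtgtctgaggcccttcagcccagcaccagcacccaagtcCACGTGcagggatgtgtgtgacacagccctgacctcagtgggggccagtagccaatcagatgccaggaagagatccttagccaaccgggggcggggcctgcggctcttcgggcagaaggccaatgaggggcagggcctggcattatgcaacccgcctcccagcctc
Cry1 (chr10:85185055-85185304, minus strand): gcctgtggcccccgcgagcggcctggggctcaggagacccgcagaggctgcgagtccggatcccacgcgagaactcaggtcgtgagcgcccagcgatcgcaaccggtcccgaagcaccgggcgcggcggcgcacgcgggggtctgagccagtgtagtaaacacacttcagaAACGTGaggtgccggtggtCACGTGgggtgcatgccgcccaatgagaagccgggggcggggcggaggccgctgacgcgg
Per3 (chr4:151044666-151044915, minus strand): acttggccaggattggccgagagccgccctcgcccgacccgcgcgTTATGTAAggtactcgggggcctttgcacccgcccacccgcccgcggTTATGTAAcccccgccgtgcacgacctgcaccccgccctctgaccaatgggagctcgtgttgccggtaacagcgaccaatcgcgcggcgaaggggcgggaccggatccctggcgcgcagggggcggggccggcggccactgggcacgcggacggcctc

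Per1 held an E-box beginning 166 bases before its start, Cry1 an E-box at 60 and an E'-box at 79, and Per3 had 2 D-boxes at 205 and 158. Of 32851 promoters of the same length, 6.02% held the E-box, 3.85% the E'-box, 5.38% a RORE core and 0.931% a D-box. The other starts of the members held none of these letters in the window. These matches describe the sequences only.

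The data showed the clearest pattern in the REV-ERB genes and Dbp. On the log2 scale relative to each array's 75th percentile, used for all levels here, Nr1d1, Nr1d2 and Dbp were lower on all 6 arrays with an induced transgene than on all 4 control arrays (Sox2 -DOX and rtTA +DOX). No other member was. Across all genes tested, 4.27% were lower in this way, and the split was drawn up after the values had been seen, so it is a description without a test. In the comparisons set out here, only that of Nr1d2 in Oct4 +DOX against rtTA +DOX passed the test over all genes. Dbp also passed it in further pairs of groups across slides, against Sox2 -DOX, given below. The same 3 members stood out under the 4 alternative settings tried, in which 4.17 to 4.83% of all genes did so.

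**Figure D1:**
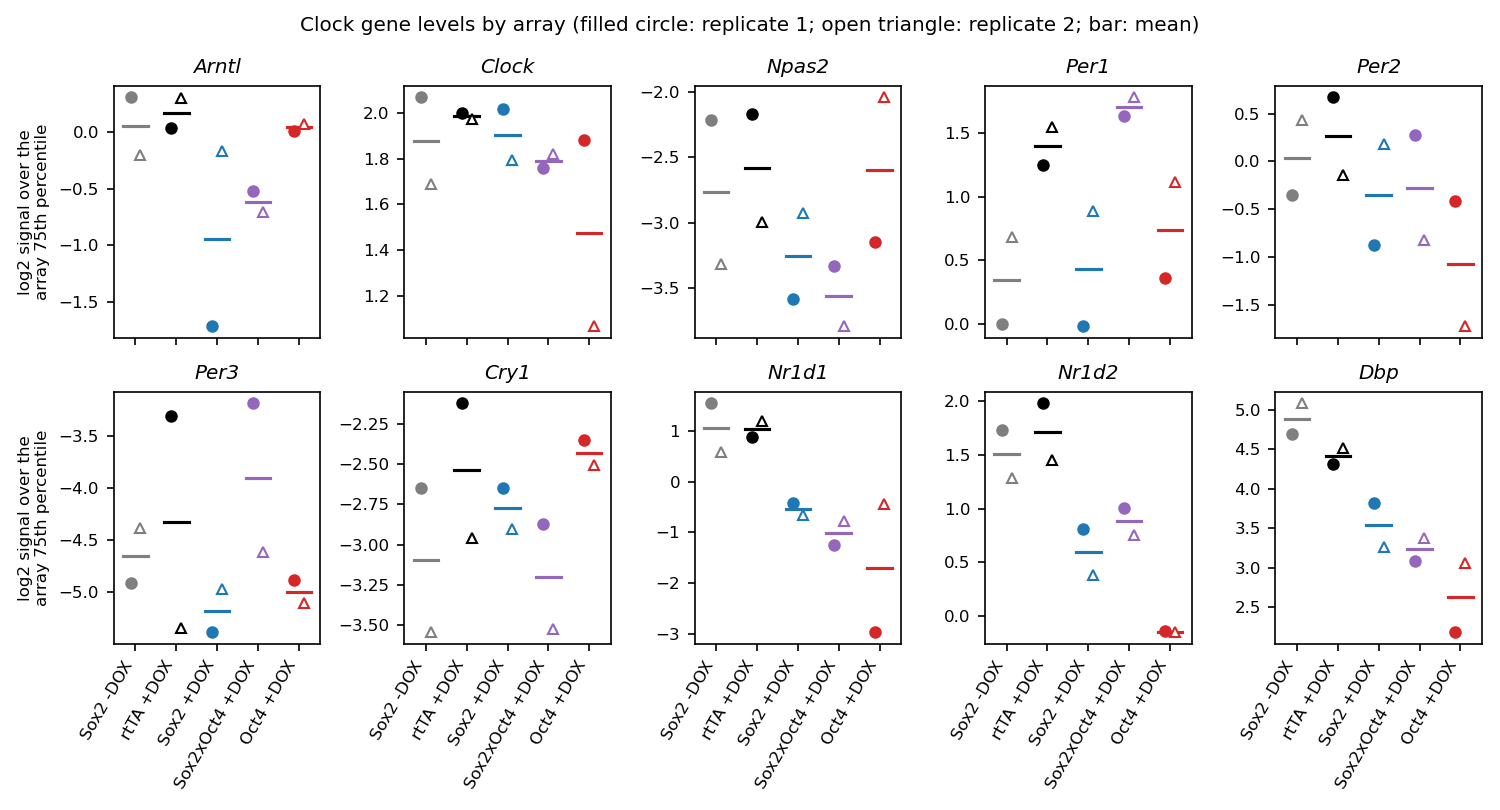
Level of each clock gene (log2 relative to the 75th percentile of its array; each panel has its own scale) on the 10 arrays by group, with the mean of the 2 arrays as a bar. Nr1d1, Nr1d2 and Dbp sit lower in the 3 groups with an induced transgene than in the 2 control groups, and the other 7 genes overlap.

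Nr1d1 encodes REV-ERB alpha, a repressor of Arntl. Its level was 1.54 and 0.58 in Sox2 -DOX (replicates 1 and 2), 0.88 and 1.20 in rtTA +DOX, -0.43 and -0.66 in Sox2 +DOX, -1.25 and -0.78 in Sox2xOct4 +DOX, and -2.97 and -0.44 in Oct4 +DOX. The 4 control arrays were all above 0 and the 6 others all below 0, with 1.01 between the nearest arrays of the 2 sets. Replicate 1 of Oct4 +DOX was by far the lowest, 5.74-fold below its partner. The highest and lowest array differed 22.7-fold, and 93.5% of all genes had a smaller SD over the 10 arrays.

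The change in Nr1d1 was -1.61 ± 0.72 (SE, n = 2 against 2) in Sox2 +DOX against Sox2 -DOX (limma adjusted p = 0.193), a 3.05-fold lower level. Against rtTA +DOX it was -2.05 ± 0.72 in Sox2xOct4 +DOX (limma adjusted p = 0.132) and -2.74 ± 0.72 in Oct4 +DOX (limma adjusted p = 0.138). None passed the test over all genes. In the second, the limma adjusted p became 0.032 when either Oct4 array was left out, at the same change. In the third, leaving out Oct4 +DOX replicate 2 gave -4.00 (limma adjusted p = 0.0176) and leaving out replicate 1 gave -1.48.

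The 3 probes of Nr1d1 all gave lower values in these comparisons, by different amounts. The 2 with the larger changes are shown because they cover different stretches of the transcript.

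Nr1d1 probe spanning 503 bases of the genome, minus strand (NCBI36, chr11:98585302-98585804): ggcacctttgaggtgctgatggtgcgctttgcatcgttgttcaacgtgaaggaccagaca
Nr1d1 probe in 1 block, minus strand (NCBI36, chr11:98588108-98588167): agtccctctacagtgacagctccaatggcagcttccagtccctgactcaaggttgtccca

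The first, which stands for the gene above, crosses at least 1 splice junction, since 60 bases of probe cover 503 bases of genome. The second gave changes of -1.45 in Sox2 +DOX against Sox2 -DOX, -1.75 in Sox2xOct4 +DOX and -1.40 in Oct4 +DOX against rtTA +DOX. The third probe (NCBI36, chr11:98588628-98588687) gave -0.68, -0.75 and -0.42 in the same order. No Nr1d1 probe passed the test over all probes.

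Nr1d2 encodes REV-ERB beta, the relative of Nr1d1. Its single probe (NCBI36, chr14:16997805-16997864) read 1.73 and 1.29 in Sox2 -DOX, 1.98 and 1.45 in rtTA +DOX, 0.81 and 0.38 in Sox2 +DOX, 1.01 and 0.75 in Sox2xOct4 +DOX, and -0.14 and -0.15 in Oct4 +DOX. The Oct4 arrays were the lowest and nearly equal, and the smallest gap between a control and an induced array was 0.28.

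Nr1d2 fell in Oct4 +DOX against rtTA +DOX by 1.86 ± 0.32 on the log2 scale (limma adjusted p = 0.0407), a 3.64-fold lower level. It was the only member called in the comparisons set out here, and Dbp passed the test in further pairs of groups, against Sox2 -DOX. In Oct4 +DOX against rtTA +DOX 1.01% of all genes were called. The change kept its direction in all 19 alternatives, from -2.13 to -1.60, but the call held in 9 of them. It ended without either rtTA +DOX array (limma adjusted p = 0.271 without replicate 1 and 0.115 without replicate 2) and without either Oct4 +DOX array (0.1 and 0.152). It also ended when any 1 of the 4 TetON-Sox2 arrays was left out (0.0501 to 0.0717), with no filter on dim probes (0.0677) and in a fit to the groups compared alone (0.088). The 2 groups lie on different slides.

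In the other comparisons Nr1d2 gave changes of -0.92 ± 0.32 (limma adjusted p = 0.115) when Sox2 +DOX was set against Sox2 -DOX and -0.84 ± 0.32 (limma adjusted p = 0.158) when Sox2xOct4 +DOX was set against rtTA +DOX. The 2 comparisons lie within slides and share no arrays. Sox2 +DOX against rtTA +DOX, across slides, gave -1.12 ± 0.32 (limma adjusted p = 0.0659). There a variance trend gave a limma adjusted p of 0.0411 and normexp with quantile normalization 0.0323.

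Dbp encodes a PAR bZIP activator that is a direct output of the clock. Its single probe (NCBI36, chr7:45577937-45577996) read 4.69 and 5.08 in Sox2 -DOX, 4.32 and 4.52 in rtTA +DOX, 3.82 and 3.27 in Sox2 +DOX, 3.08 and 3.38 in Sox2xOct4 +DOX, and 2.18 and 3.07 in Oct4 +DOX. The lowest control array stood 0.50 above the highest array with an induced transgene. The range over the 10 arrays was 7.47-fold.

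The change in Dbp was -1.35 ± 0.37 in Sox2 +DOX against Sox2 -DOX (limma adjusted p = 0.0643), 2.54-fold lower. It was -1.19 ± 0.37 in Sox2xOct4 +DOX (limma adjusted p = 0.102) and -1.80 ± 0.37 in Oct4 +DOX (limma adjusted p = 0.0732), both against rtTA +DOX. None passed the test. With a variance trend the first and the third did, at limma adjusted p of 0.0357 and 0.0389. The rtTA +DOX arrays were themselves lower than Sox2 -DOX for Dbp, at -0.47 ± 0.37 (limma adjusted p = 0.96). Against Sox2 -DOX, across slides, Dbp was at -2.26 ± 0.37 in Oct4 +DOX (limma adjusted p = 0.0327). Sox2 -DOX stood 1.66 ± 0.37 above Sox2xOct4 +DOX (limma adjusted p = 0.0302). These pairs were not run under the alternatives, and the share of all genes called in them was not counted. The calls are therefore not shown to be particular to Dbp.

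The 5 groups ranked in much the same order for these 3 genes, with the means of the controls on top and that of Oct4 +DOX last. For Nr1d1 the last place rested on replicate 1, since replicate 2 (-0.44) lay above the means of Sox2 +DOX (-0.55) and Sox2xOct4 +DOX (-1.01). Few neighbours in that order differed beyond their spread. The 95% interval of the step excluded 0 for Dbp from rtTA +DOX down to Sox2 +DOX (0.88) and for Nr1d2 from Sox2 +DOX down to Oct4 +DOX (0.74). For Nr1d1 every step between neighbours had an interval that held 0, including that from rtTA +DOX to Sox2 +DOX (1.58, interval -0.06 to 3.23). For the other 7 members every step between neighbours held 0 as well.

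**Figure D2:**
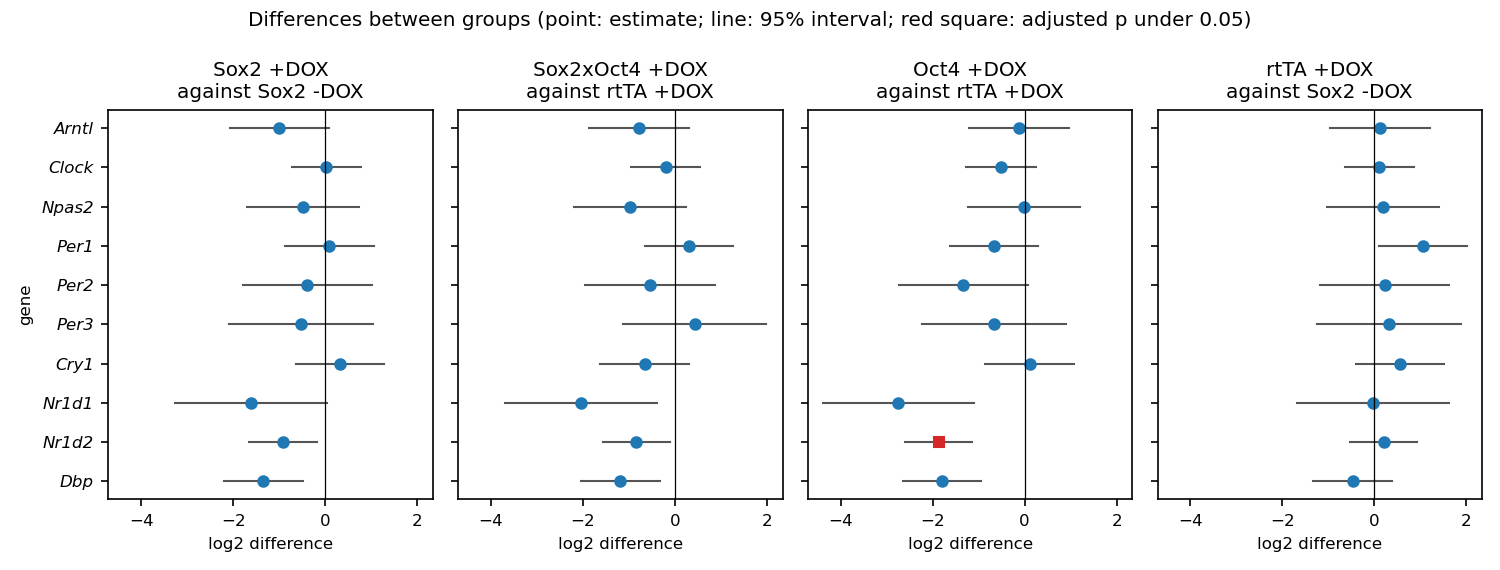
Log2 difference between groups for each clock gene in 4 comparisons, with the 95% interval of the limma fit as a line. The points of Nr1d1, Nr1d2 and Dbp lie between -0.84 and -2.74 in the first 3 panels, and only Nr1d2 in Oct4 +DOX, drawn as a red square, has an adjusted p under 0.05.

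The activators of the loop showed no such order. Arntl, which encodes BMAL1, read 0.31 and -0.20 in Sox2 -DOX, 0.04 and 0.30 in rtTA +DOX, -1.72 and -0.17 in Sox2 +DOX, -0.52 and -0.71 in Sox2xOct4 +DOX, and 0.01 and 0.07 in Oct4 +DOX. Replicate 1 of Sox2 +DOX stood alone as the lowest array, 2.92-fold below replicate 2, and the Oct4 arrays stood among the controls. The change was -0.995 ± 0.47 in Sox2 +DOX against Sox2 -DOX (limma adjusted p = 0.215). Against rtTA +DOX it was -0.79 ± 0.47 in Sox2xOct4 +DOX (limma adjusted p = 0.356) and -0.12 ± 0.47 in Oct4 +DOX (0.942). The change rested on Sox2 +DOX replicate 1, without which it was -0.22 (limma adjusted p = 0.846) against Sox2 -DOX and -0.34 (0.73) against rtTA +DOX. Without Sox2 +DOX replicate 2, Arntl was called in Sox2 +DOX against Sox2 -DOX and against rtTA +DOX, where it read -1.89 (limma adjusted p = 0.0252).

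Clock was the steadiest member, with a 2.00-fold range over the arrays. It read 2.07 and 1.69 in Sox2 -DOX, 2.00 and 1.97 in rtTA +DOX, 2.02 and 1.79 in Sox2 +DOX, 1.76 and 1.82 in Sox2xOct4 +DOX, and 1.88 and 1.07 in Oct4 +DOX. Only Oct4 +DOX replicate 2 lay apart, below the rest. Just 10.3% of all genes had a smaller SD over the 10 arrays. The 4 probes did not move alike, and in Sox2xOct4 +DOX against rtTA +DOX their changes ran from -0.30 to 0.53, none called.

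Npas2, which can stand in for Clock, read -2.22 and -3.31 in Sox2 -DOX, -2.17 and -2.99 in rtTA +DOX, -3.59 and -2.92 in Sox2 +DOX, -3.33 and -3.79 in Sox2xOct4 +DOX, and -3.15 and -2.04 in Oct4 +DOX. The arrays of most groups overlapped with those of the controls, and Sox2xOct4 +DOX had both arrays below every control. Against rtTA +DOX the Sox2xOct4 change was -0.98 ± 0.53 (limma adjusted p = 0.307).

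The repressors of the loop varied among arrays without a common direction. Per1 read -0.01 and 0.69 in Sox2 -DOX, 1.25 and 1.55 in rtTA +DOX, -0.02 and 0.88 in Sox2 +DOX, 1.63 and 1.78 in Sox2xOct4 +DOX, and 0.36 and 1.12 in Oct4 +DOX. The 4 arrays of the slide shared by rtTA and Sox2xOct4 mice were the highest, above the 4 TetON-Sox2 arrays and both Oct4 arrays. The 2 control groups differed by 1.06 ± 0.42 (limma adjusted p = 0.843), while on a slide Per1 gave 0.09 ± 0.42 in Sox2 +DOX against Sox2 -DOX and 0.31 ± 0.42 in Sox2xOct4 +DOX against rtTA +DOX. Group and slide cannot be told apart between the control groups.

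Per2 read -0.35 and 0.43 in Sox2 -DOX, 0.67 and -0.14 in rtTA +DOX, -0.88 and 0.18 in Sox2 +DOX, 0.27 and -0.82 in Sox2xOct4 +DOX, and -0.41 and -1.72 in Oct4 +DOX. Both Oct4 arrays lay below every control array, and the other groups overlapped. The change in Oct4 +DOX was -1.33 ± 0.61 (limma adjusted p = 0.403), and the other Per2 probe gave 0.59 ± 0.47 there, so the probes disagreed in sign.

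Per3 was read at -4.92 and -4.38 in Sox2 -DOX, -3.31 and -5.35 in rtTA +DOX, -5.39 and -4.97 in Sox2 +DOX, -3.18 and -4.62 in Sox2xOct4 +DOX, and -4.89 and -5.11 in Oct4 +DOX. Replicate 1 of rtTA +DOX and of Sox2xOct4 +DOX were the 2 high arrays. Both Sox2 +DOX arrays lay below both Sox2 -DOX arrays, but rtTA +DOX replicate 2 was as low. No change of Per3 had an unadjusted p under 0.05.

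Cry1 read -2.65 and -3.54 in Sox2 -DOX, -2.12 and -2.95 in rtTA +DOX, -2.65 and -2.90 in Sox2 +DOX, -2.87 and -3.52 in Sox2xOct4 +DOX, and -2.35 and -2.50 in Oct4 +DOX. Each induced group overlapped with its control group. Its changes ran from -0.66 to 0.32 in the 3 comparisons of an induced group with its control, and none passed the test.

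Counted together, 7 of the 10 members had a value below 0 in Sox2 +DOX against Sox2 -DOX, 8 in Sox2xOct4 +DOX against rtTA +DOX and 9 in Oct4 +DOX against rtTA +DOX (8 after quantile normalization, where Npas2 stood at 0.07). Their median changes were -0.51, -0.72 and -0.66, and the medians of all genes tested were -0.10, 0.07 and 0.01. With limma, 0 members were called in the first, where 7.82% of all genes were, and 0 in the second, where 6.34% were. At an unadjusted p under 0.05 there were 2, 3 and 3 members, beside 27.1%, 23.9% and 13.3% of all genes. In the first 2 comparisons, 2 and 3 of 10 are near the share of all genes.

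The arrays of the groups compared did not overlap, with the induced group lower, for 4 members in Sox2 +DOX against Sox2 -DOX, 6 in Sox2xOct4 +DOX and 6 in Oct4 +DOX against rtTA +DOX. Of all genes, 36.6%, 24.1% and 23.5% were lower in that way. Per1 in Sox2xOct4 +DOX was the one member without overlap in the other direction, which 28.7% of all genes showed.

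Sox2 +DOX was also set against the DOX-treated control across slides. All 10 members had a value below 0 there (9 after quantile normalization, where Clock stood at 0.0040, and 8 with the mean of a gene's probes or without rtTA +DOX replicate 1), with a median of -0.86 against -0.04 for all genes. With limma 0 were called, beside 8.38% of all genes, and 4 (Arntl, Per1, Nr1d2 and Dbp) had an unadjusted p under 0.05, beside 28.5%. These values share the rtTA arrays with the 2 comparisons against rtTA +DOX and the Sox2 +DOX arrays with the first comparison, so they are no separate evidence of a direction.

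The 2 control groups differ in DOX, sucrose, transgene, slide and sex-linked genes (Eif2s3y well above background only in Sox2 -DOX, Xist only in rtTA +DOX). For rtTA +DOX over Sox2 -DOX 2 of 10 members had a value below 0, with a median of 0.19 against 0.01 for all genes. That count was 6 without Sox2 -DOX replicate 2, 5 without rtTA +DOX replicate 1, 3 without rtTA +DOX replicate 2 and 4 with the mean of a gene's probes. With limma 0 members and 0% of all genes were called, and 1 member, Per1, had an unadjusted p under 0.05, beside 5.61% of all genes. Dbp and Per1 did not overlap between these groups, Dbp lower and Per1 higher, beside 22.6% and 20.6% of all genes. Nr1d1 differed by -0.02 ± 0.72 and Nr1d2 by 0.21 ± 0.32.

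The response to Sox2 within its slide and that to both factors within theirs share no arrays, and their difference was tested directly. With limma, 0 of 10 members differed, at an adjusted p or at an unadjusted p under 0.05, beside 0.168% and 9.61% of all genes. The difference was 0.44 for Nr1d1 (95% interval -1.89 to 2.77), -0.08 for Nr1d2 (-1.11 to 0.95) and -0.16 for Dbp (-1.37 to 1.05). These intervals are wide, so the responses are not shown to be alike.

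The 2 arrays of a group often disagreed on clock genes. The median size of the difference between replicates was 0.612 for the members against 0.269 for all genes in Sox2 -DOX, and 0.782 against 0.436 in Oct4 +DOX. It was 0.427 against 0.352 in rtTA +DOX and 0.491 against 0.393 in Sox2 +DOX, while in Sox2xOct4 +DOX the members differed less, at 0.378 against 0.533. The widest gaps were those of Nr1d1 in Oct4 +DOX (-2.52, replicate 1 minus 2) and of Per3 in rtTA +DOX (2.04). In these groups 98.6% and 99.1% of all genes differed less between replicates. The Oct4 arrays also differ in sex-linked genes, whose part in the Nr1d1 gap was not tested.

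**Figure D3:**
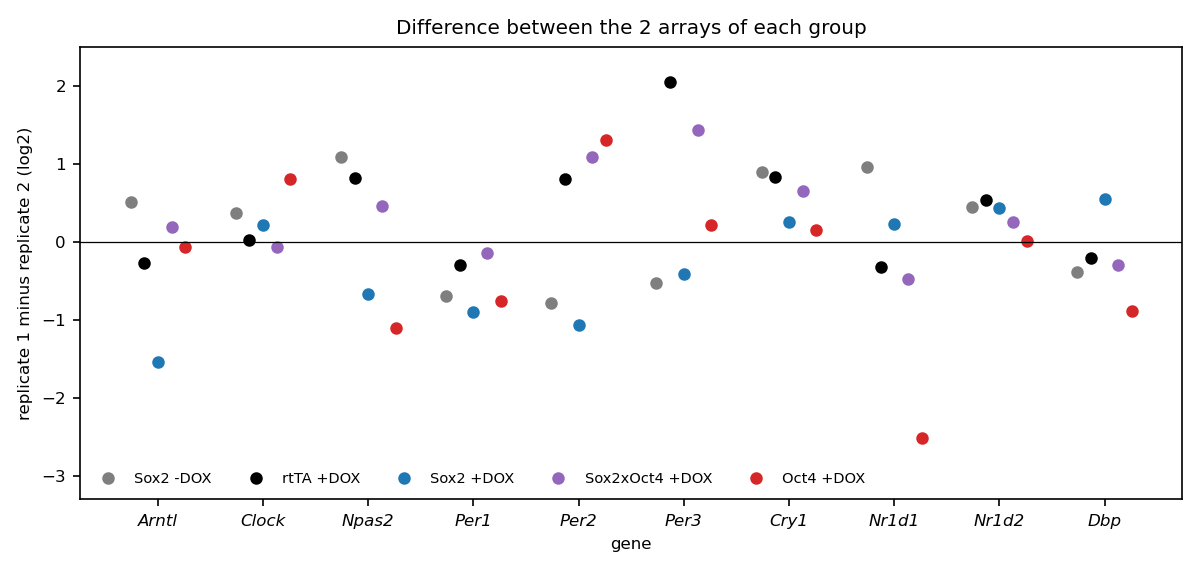
Replicate 1 minus replicate 2 (log2) for each clock gene, with 1 point per group. Most points lie within 1 of 0, Nr1d1 in Oct4 +DOX lies at -2.52, and the black (rtTA +DOX) and purple (Sox2xOct4 +DOX) points lie close together for most genes.

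On the slide that held rtTA +DOX and Sox2xOct4 +DOX, the replicates differed alike. Replicate 1 was above replicate 2 in both groups for Npas2, Per2, Per3, Cry1 and Nr1d2 and below it in both for Per1, Nr1d1 and Dbp, which makes 8 of 10 members with the same sign. Across slides, rtTA +DOX and Oct4 +DOX shared the sign for 9 of 10 members, with r = 0.42. For rtTA +DOX and Sox2xOct4 +DOX the differences correlated over the 10 members with r = 0.919, and over all 19049 genes with r = 0.242 and 59.9% of signs shared. Among the 10 pairs of groups this was the highest r over the members, and the others ran from -0.421 to 0.624. The genes are not independent and the pair was picked from 10 after its values were seen, so this is a description. The labels do not say whether samples of one replicate number were collected at the same time.

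Within groups, the clock genes did not all follow Dbp. Over the 10 arrays, which share slides, Dbp correlated with Nr1d1 at r = 0.918 and with Nr1d2 at 0.828. After group means were removed, r was 0.675 with Nr1d1 and -0.131 with Nr1d2. Arntl, whose transcript peaks at another phase of the day than Dbp in tissues with a running clock, gave 0.153 over the arrays and -0.514 with group means removed. With Dbp, Per2 gave 0.389 over the arrays and -0.716 with group means removed, and Per3 gave 0.0192 and -0.352. Per2 and Per3 correlated with each other at 0.623 over the arrays and 0.731 with group means removed.

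**Figure D4:**
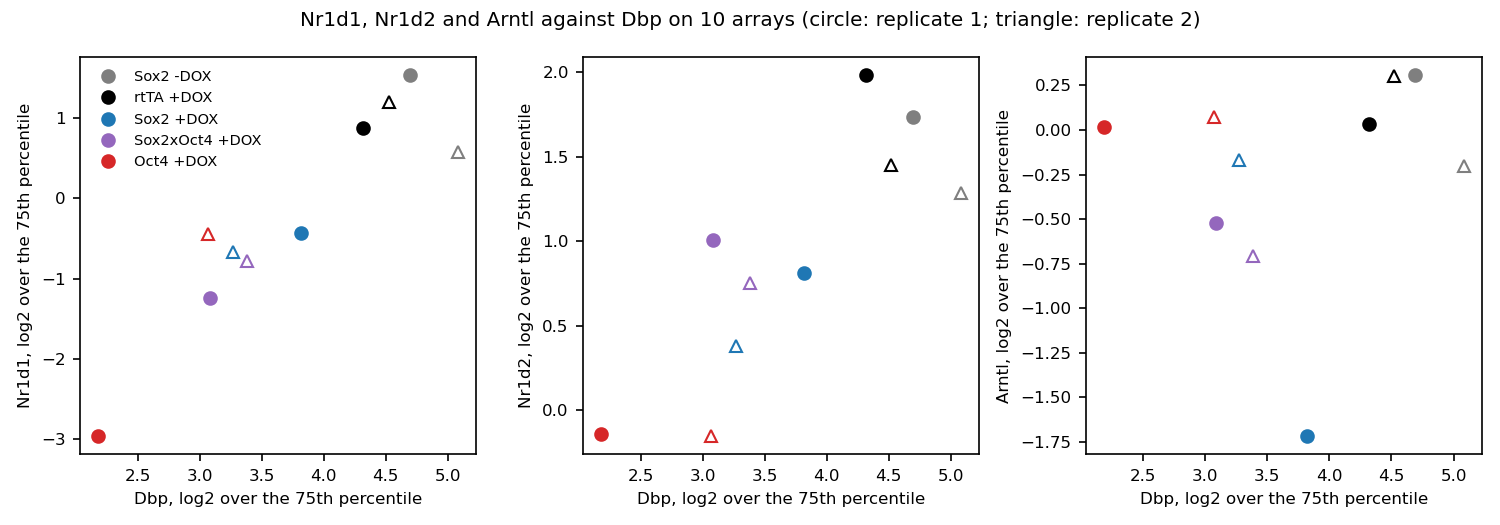
Levels of Nr1d1, Nr1d2 and Arntl against Dbp (log2 over the array's 75th percentile) on the 10 arrays. The control arrays (grey, black) sit at the upper right for Nr1d1 and Nr1d2, Oct4 +DOX replicate 1 (red) at the lower left, and Arntl shows no such slope. For Nr1d1, Oct4 +DOX replicate 2 lies at -0.44, among the other arrays with an induced transgene.

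Among 16078 other genes well above background on all arrays, Nr1d1 had rank 2 in its likeness to Dbp by r. Tef, like Dbp a PAR bZIP factor, had rank 13 (r = 0.873), Nr1d2 rank 47 and Ciart, a repressor of the clock, rank 74 (r = 0.805). Outside the clock genes Tesc was the most alike (r = 0.936), then the array feature NAP065150-1 (0.911), Lnx1 (0.904), Trib3 (0.902) and Rell1 (0.901), and Abl2 was the least alike (r = -0.951). For Arntl the nearest were Pheta1 (r = 0.96), Edn2, Ugt1a6b, Casz1 and Trim2, and the farthest Pop1 (r = -0.961). These values describe 10 arrays in 5 groups.

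Of 20 other clock genes, 19 were tested. In Sox2 +DOX against Sox2 -DOX 1 fell and none rose, in Sox2xOct4 +DOX against rtTA +DOX 2 fell and none rose (Bhlhe41 is left out, for the reason given with it), and in Oct4 +DOX against rtTA +DOX none was called by limma. Of all genes, 7.82%, 6.34% and 1.01% were called in these comparisons. The medians were -0.38, -0.48 and -0.31. Fbxl21, an F-box protein that acts on cryptochromes, fell by 2.25 ± 0.38 in the first (limma adjusted p = 0.0136) and by 2.61 ± 0.38 in the second (0.0101). It read -1.59 and -1.93 in Sox2 -DOX, -1.47 and -2.29 in rtTA +DOX, -4.35 and -3.67 in Sox2 +DOX, -4.68 and -4.29 in Sox2xOct4 +DOX, and -2.17 and -2.21 in Oct4 +DOX. The Oct4 arrays stayed among the controls, and the change there was -0.31 ± 0.38 (limma adjusted p = 0.788). With normexp and quantile normalization both falls were smaller, at -1.003 and -1.19, and still called (limma adjusted p = 0.0341 and 0.0227). The first call ended without Sox2 -DOX replicate 1 or 2 or Sox2 +DOX replicate 1 (limma adjusted p of 0.109, 0.067 and 0.103), and the second without replicate 1 of rtTA +DOX (0.0836) or of Sox2xOct4 +DOX (0.052).

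Hlf and Tef complete the PAR bZIP family with Dbp. Hlf read -2.34 and -2.32 in Sox2 -DOX, -1.54 and -1.62 in rtTA +DOX, -3.12 and -3.19 in Sox2 +DOX, -3.04 and -2.98 in Sox2xOct4 +DOX, and -2.49 and -3.37 in Oct4 +DOX. Tef read 2.05 and 2.10, 2.06 and 1.78, 1.44 and 1.35, 1.34 and 1.39, and 1.03 and 0.66 in the same order of groups. So all 3 family members were lower on the 6 arrays with an induced transgene than on the 4 controls, as 4.27% of all genes were. Hlf fell in Sox2xOct4 +DOX by 1.43 ± 0.32 (limma adjusted p = 0.0409). That call ended without any 1 of 8 arrays (those of rtTA +DOX, Sox2xOct4 +DOX, Sox2 -DOX and Sox2 +DOX), where the limma adjusted p was 0.0544 to 0.225, and with no filter on dim probes (0.0709) or a fit to the groups compared alone (0.0918). Hlf and Tef gave -0.83 ± 0.32 and -0.68 ± 0.27 in Sox2 +DOX against Sox2 -DOX (limma adjusted p = 0.147 and 0.146), and -1.35 ± 0.32 and -1.07 ± 0.27 in Oct4 +DOX (0.107 and 0.117).

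Bhlhe41 (DEC2), a repressor of clock output, was not well above background in Sox2xOct4 +DOX. It passed the filter on dim probes only through rtTA +DOX, and no array of another group was well above background. Its limma call in Sox2xOct4 +DOX against rtTA +DOX (adjusted p = 0.0345, means of -8.53 and -6.01) is therefore not counted. With a floor at the lowest signal above background the change was -0.44 and was not called (limma adjusted p = 0.56). Nfil3, which competes with DBP for D-boxes, was looked up after its values were seen. It read -0.72 and -0.59 in rtTA +DOX, -0.08 and 0.67 in Sox2xOct4 +DOX and 0.69 and 1.31 in Oct4 +DOX, with differences of 0.95 ± 0.37 (limma adjusted p = 0.168) and 1.66 ± 0.37 (0.093). In Sox2 +DOX against Sox2 -DOX it gave -0.38 ± 0.37. Ciart gave -0.33, -1.19 and -1.78 in the 3 comparisons, none called.

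Genes known for a daily rhythm downstream of the clock numbered 14, all tested. In Sox2 +DOX against Sox2 -DOX 3 fell, in Sox2xOct4 +DOX against rtTA +DOX 5 fell and in Oct4 +DOX none was called, and none rose, beside 7.82%, 6.34% and 1.01% of all genes called. Medians were -1.42, -1.83 and -0.50. Mttp, which loads lipid onto lipoproteins, fell by 3.37 ± 0.53 (limma adjusted p = 0.0115) and 3.30 ± 0.53 (0.0139). Slc5a1, the sodium-glucose carrier SGLT1, stood at -3.27 ± 0.55 (0.014) and -2.60 ± 0.55 (0.0338), and Slc2a5, the fructose carrier GLUT5, at -3.28 ± 0.55 (0.0136) and -2.44 ± 0.55 (0.0404). Abcb1a (a drug efflux pump) and Cdkn1a (a cell cycle inhibitor) fell in the second, at -2.11 ± 0.43 (limma adjusted p = 0.0292) and -2.42 ± 0.52 (0.0351). The test of the difference between the 2 comparisons gave limma adjusted p of 0.83 and 0.832 for them. Mttp, Slc5a1 and Slc2a5 are genes of absorptive enterocytes. Each of the 8 calls named here ended when some single arrays were left out. In the first comparison, leaving out Sox2 -DOX replicate 1 ended all 3 (limma adjusted p of 0.0952 to 0.104), replicate 2 those of Slc5a1 and Slc2a5, and Sox2 +DOX replicate 1 those of Mttp and Slc5a1. In the second, leaving out either rtTA +DOX array or Sox2xOct4 +DOX replicate 1 ended all 5 (limma adjusted p of 0.0581 to 0.222). Sox2xOct4 +DOX replicate 2 ended those of Slc5a1, Slc2a5 and Abcb1a, either Sox2 -DOX array those of Slc5a1, Slc2a5 and Cdkn1a, and either Oct4 +DOX array those of Slc2a5 and Cdkn1a. All 3 calls of the first comparison also ended in a fit to the groups compared alone and with the authors' deposited table (limma adjusted p of 0.0539 to 0.0724). Of the second, Abcb1a and Cdkn1a were lost in the fit to the groups compared alone (0.0578 and 0.0732), and Slc2a5 and Cdkn1a with no filter on dim probes (0.058 and 0.051).

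Usp2, a deubiquitinase with a strong daily rhythm in many tissues, gave -2.06 ± 0.57, -2.11 ± 0.57 and -1.42 ± 0.57 in the same 3 comparisons (limma adjusted p = 0.0641, 0.0677 and 0.33) and was named after its values were seen. Of 9 glucocorticoid-responsive genes, listed because the adrenal hormone follows the clock and stress, 8 were tested and limma called 0 in every comparison. Of these 8, 7 had a value above 0 in rtTA +DOX over Sox2 -DOX, with a median of 0.78, and Mt2 was at 1.96 ± 0.75 (limma adjusted p = 0.808).

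Cell type markers were also compared between the groups. In bulk tissue, fewer cells of a type and less RNA per cell cannot be told apart. Enterocyte markers were below 0 for 8 of 8 genes in Sox2 +DOX against Sox2 -DOX and 7 of 8 in Sox2xOct4 +DOX against rtTA +DOX, and for 2 of 8 in Oct4 +DOX, where the group means of Nr1d1, Nr1d2 and Dbp were lowest, that of Nr1d1 through replicate 1 alone. Their summed log2 level was 9.63 to 9.77 in Sox2 -DOX, 9.07 to 9.73 in rtTA +DOX, 7.77 to 8.80 in Sox2 +DOX, 8.49 to 9.53 in Sox2xOct4 +DOX and 9.39 to 9.79 in Oct4 +DOX. T cell markers were below 0 for 8 of 8 genes in all 3 comparisons, with summed levels of 2.87 to 4.54 on control arrays and 1.82 to 2.88 on the others. Between the controls, in rtTA +DOX over Sox2 -DOX, 8 of 8 T cell markers were below 0 as well. Smooth muscle markers were below 0 for 7, 8 and 8 of 8, at 6.55 to 7.84 on control arrays and from 5.21 to 8.33 on the others, with the 2 Sox2xOct4 arrays at either end. Of the markers of B and plasma cells 6, 5 and 2 of 6 were below 0 in the 3 comparisons, of fibroblasts 5, 4 and 6 of 6, and of adipocytes 6, 5 and 2 of 6. Of enteric neurons and glia 6, 4 and 4 of 6 were, of goblet cells 4, 4 and 3 of 5, and of proliferating cells 0, 0 and 2 of 6. Lep, Gfap and Fcgbp were not tested. The part of these cells in the clock gene values was not tested.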

How the data were processed

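RNA from ileum was labelled with Cy3 after linear amplification and measured on 10 1-colour Agilent mouse arrays, per the labels' protocols. The deposited scanner files hold an intensity per spot, background-subtracted and detrended within each array and not normalized between arrays, per the file headers. These name Feature Extraction 9.5.3.1, 10.7.3.1 and 10.7.1.1 for the 3 slides, and the submitters' processing notes name 9.1. A deposited table of normalized signal values covers the 4 TetON-Sox2 arrays and served as an alternative. How it was made is not stated.

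Control spots and outliers were removed and repeated spots averaged. Of 41174 probes, 31 without a value on some array were dropped. The log2 signal minus the array's 75th percentile was used, a probe was kept if both arrays of some group were well above background (28752), and the brightest probe stood for a gene (19049 genes). RefSeq tables named 80.2% of probes. Probe coordinates are NCBI36. The 75th percentile was a signal of 544.2 to 1612.8, and the number of arrays, 2 per group, limits precision (median SE 0.39).

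Comparisons used limma 3.58.1 (R 4.3.3), fitted to all 10 arrays and 5 group means, Benjamini-Hochberg adjustment over all genes and a threshold of 0.05. Likeness is Pearson's r over 10 arrays. Alternatives changed the background correction (normexp, offset 50), normalization, filter, floor, probe choice, variance model, blocks and samples. The members, lists and comparisons were chosen with earlier results of these data known. Named genes are the 10 members, the 5 genes most and 5 least like Arntl and Dbp (fewer are named), up to 4 per list by p in each within-slide comparison, and called list genes, with exceptions stated. The fit was tested on simulated data. Figures were made with Python 3.11.15 and matplotlib 3.10.9. Values of some listed genes are not reported here.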

Additional observations from a re-analysis of the deposited data

How the results depend on the processing

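In the 4 comparisons of an induced group with a control group that were run under alternatives, no clock gene called there changed direction. Nr1d1, Nr1d2 and Dbp kept theirs under every alternative. Over all comparisons, 32 results turned in sign under some alternative. All were among the 60 changes of a clock gene, except that of Errfi1, given below. None of the turned values had an adjusted p under 0.05 in limma. With the mean of a gene's probes, Clock turned to -0.18 in Sox2 +DOX against Sox2 -DOX, 0.0061 in Sox2xOct4 +DOX and 0.31 in Sox2 +DOX against rtTA +DOX, -0.49 between the controls and -0.19 in the difference of the responses. Cry1 turned to 0.12 in Sox2 +DOX against rtTA +DOX, and Per2 to -0.21 between the controls and -0.21 in the difference. Quantile normalization without and with normexp gave 0.0742 and 0.0451 for Npas2 in Oct4 +DOX and 0.0040 and 0.0196 for Clock in Sox2 +DOX against rtTA +DOX.

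Leaving out single arrays gave ranges across 0. For Sox2 +DOX against Sox2 -DOX they were -0.16 to 0.21 for Clock, -0.12 to 0.77 for Cry1, -1.03 to 0.0592 for Npas2, -0.36 to 0.54 for Per1 and -0.92 to 0.14 for Per2. For Errfi1, a gene of the glucocorticoid-responsive list, they were -0.69 to 0.21. In Sox2xOct4 +DOX against rtTA +DOX they were -1.08 to 0.0099 for Per2 and -0.59 to 1.45 for Per3. In Oct4 +DOX they were -0.26 to 0.0093 for Arntl, -0.31 to 0.53 for Cry1, -0.56 to 0.54 for Npas2 and -1.69 to 0.35 for Per3. Against rtTA +DOX, Sox2 +DOX gave -0.19 to 0.0284 for Clock, -0.65 to 0.18 for Cry1 and -1.87 to 0.17 for Per3. Between the controls they were -0.14 to 0.37 for Arntl, -0.0798 to 0.30 for Clock, -0.36 to 0.73 for Npas2, -0.50 to 0.46 for Nr1d1, -0.0609 to 0.47 for Nr1d2, -0.18 to 0.63 for Per2 and -0.70 to 1.34 for Per3. In the difference of the responses they were -0.98 to 0.56 for Arntl, -0.43 to 0.12 for Dbp, -0.0564 to 1.04 for Npas2, -0.0378 to 0.92 for Nr1d1, -0.35 to 0.19 for Nr1d2, -0.67 to 0.24 for Per1, -0.40 to 0.70 for Per2 and -1.98 to 0.0643 for Per3.

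In Oct4 +DOX against rtTA +DOX the count of clock genes called, 1 as reported, was 0 without a filter on dim probes and in a fit to only the groups compared, 2 with a variance trend (Nr1d2 and Dbp), and 0 to 1 when single arrays were left out. In Sox2 +DOX against Sox2 -DOX the count, 0 as reported, was 1 with a variance trend (Dbp) and 0 to 1 without single arrays. In Sox2xOct4 +DOX against rtTA +DOX it was 0 to 1 without single arrays (Nr1d1). For Sox2 +DOX against rtTA +DOX it was 1 with a variance trend, 1 with normexp background correction and quantile normalization, and 0 to 1 without single arrays. The cause was not tested.

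With the replicate number as a block, 1 clock gene was called in Sox2 +DOX against rtTA +DOX (Nr1d2, limma adjusted p = 0.0471), and no other count changed. Slc2a5 was not called in Sox2xOct4 +DOX against rtTA +DOX under it (0.0503). The labels do not tie samples by number. Replicate differences correlated over all genes at -0.128 to 0.275 between groups, above 0.1 in 5 of 10 pairs of groups, so the numbers were not taken to pair samples, and whether they do is not known. Each group lies on 1 slide, so a slide block adds nothing to the group means. Within slides the fit is then the same by design and is no separate check. Across slides a slide block could not be fitted.

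Over all genes, a fit to only the groups compared called 612 genes in Sox2 +DOX against Sox2 -DOX beside 1489, and 473 in Sox2xOct4 +DOX against rtTA +DOX beside 1208. Without single arrays the counts were 161 to 1744, with 161 and 284 without Sox2 -DOX replicates 1 and 2 and 234 without Sox2 +DOX replicate 1, and 105 to 1249, with 105 and 206 without rtTA +DOX replicates 1 and 2 and 360 without Sox2xOct4 +DOX replicate 1. In Oct4 +DOX against rtTA +DOX they were 35 to 215 beside 192 and in Sox2 +DOX against rtTA +DOX 195 to 2179 beside 1596, lowest without rtTA +DOX replicate 1 in both. With normexp and quantile normalization 945 of 1915 calls in the first were higher, beside 578 of 1489. With 2 arrays per group and 1 or few probes per gene, changes near the median SE cannot be told from 0. The time of day of sampling is unknown here.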
